A study of Mus musculus with 15 samples.

Results

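Transcripts of 9 enzyme genes of the tricarboxylic acid (TCA) cycle were followed in skeletal muscle of mice. The genes were taken by name, with earlier results of these data known: Cs, Idh2, Idh3a, Idh3g, Ogdh, Sucla2, Suclg1, Fh1 and Mdh2. All 9 were found among the 39179 genes listed in each of the 15 count files, and all 9 passed the filter on low counts in every comparison. RNA-seq was done on quadriceps of 15 single C57BL/6 mice. At 3 mo there were 4 animals of each genotype, and at 19 mo there were 3 wild-type and 4 V338Y animals. V338Y mice are homozygous for an amino acid exchange in Mrps5, a protein of the small subunit of the mitochondrial ribosome, which lowers the accuracy of mitochondrial translation, and wild-type mice have the unchanged gene. The study asked how age changes the muscle transcriptome in each genotype and whether the exchange alters it.

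The TCA cycle runs in the mitochondrial matrix. It condenses acetyl-CoA with oxaloacetate, oxidizes the product back to oxaloacetate with the release of carbon dioxide, and passes the electrons to the respiratory chain. All its enzymes are encoded in the nucleus, and muscle fibers that work by oxidative metabolism hold more of them than fast glycolytic fibers do. Several steps are carried out by complexes of different subunits, so that the transcripts of 1 step need not move together.

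Total counts per mouse ran from 8250653 to 18968132, and the 9 genes together took 0.205 to 0.313% of them. A member had between 570 and 10692 counts in a mouse, so that counting error was small beside the spread between mice. The 10 muscle fiber genes examined (among them Ckm, Acta1 and Myh4) were counted in all groups. Levels are given in CPM, the share of the library's counts on a common scale, after TMM (trimmed mean of M-values) normalization. The study's methods call the 3 mo mice and the 19 mo wild-type mice female, yet in all 8 mice at 3 mo the Y-linked Ddx3y was counted at 166 to 201 CPM and Xist, the RNA of the inactive X chromosome, at no more than 0.586 CPM. In the 7 mice at 19 mo Xist was at 502 to 626 CPM and Ddx3y at no more than 0.0813 CPM. Age and sex therefore cannot be told apart in any age comparison given here. In whole muscle, fewer cells of a type and less RNA per cell cannot be told apart either, and the p-values measure only the spread between these mice.

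With age, transcripts of 5 of the 9 enzyme genes were called lower in both genotypes, but only Sucla2, Suclg1 and Fh1 under every alternative described below. The 5 were Idh3a and Idh3g, Sucla2 and Suclg1, and Fh1, whose enzymes act at 3 steps in the middle and later part of the cycle. Ogdh was called higher in V338Y mice and Idh2 in wild-type mice, whereas Cs and Mdh2, which join the ends of the cycle, did not pass the test in either genotype. Ogdh lay higher at 19 mo without overlap in both genotypes, and the interaction test called neither gene. The Idh2 call was lost without wild-type mouse 5 at 19 mo (log2 fold change 0.29, edgeR adjusted p = 0.129). In wild-type mice 5 of 9 members were called lower and 1 higher at an edgeR adjusted p under 0.05, against 17.8% and 18.3% of the 13657 genes tested. In V338Y mice 5 were called lower and 1 higher, against 22.5% and 24.4% of 13868 genes. Without overlap between the ages, 5 members were lower and 2 higher in wild-type mice (22.4% and 20.8% of all genes tested), and 5 were lower and 1 higher in V338Y mice (22.6% and 19.5%). The median log2 fold change of the 9 members was -0.41 for wild-type mice and -0.37 for V338Y mice, beside 0.02 and 0.07 over all genes tested.

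Some genes that mark cell types also moved with age. The 10 muscle fiber genes summed to 134085 to 142957 CPM in 3 mo and 91699 to 141739 CPM in 19 mo wild-type mice, which overlapped, and to 136445 to 159180 and 75152 to 122321 CPM in V338Y mice, which did not. Of the 10, 2 were called lower and 1 higher in wild-type mice (17.8% and 18.3% of all genes tested), counts near those shares. In V338Y mice 5 were called lower and 0 higher (22.5% and 24.4%). The 4 endothelial genes (Pecam1, Cdh5, Kdr and Tek) summed to 140 to 174 CPM at 3 mo and 191 to 292 CPM at 19 mo in wild-type and to 138 to 163 and 203 to 317 CPM in V338Y mice, without overlap in either genotype. The sum of 5 macrophage genes was 150 to 218 CPM at 3 mo and 235 to 254 CPM at 19 mo in wild-type mice, and 171 to 311 and 287 to 339 CPM in V338Y mice. Of the endothelial and macrophage genes, 2 of 4 and 3 of 5 were called higher in wild-type mice (18.3% of all genes tested). In V338Y mice 3 of 4 and 3 of 5 were called higher (24.4%). None of these endothelial and macrophage genes was at 0 in all mice of a group. The part of cell makeup in the lower levels of the members was not tested.

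How libraries were scaled mattered in V338Y mice. With library totals in place of TMM factors the median of all genes moved to 0.11 for wild-type mice and 0.36 for V338Y mice, and that of the members to -0.31 and -0.08. The distance of the members from all genes was -0.43 and -0.44 with TMM and -0.42 and -0.45 with totals. With totals Sucla2, Suclg1 and Fh1 were still called lower in V338Y mice, Idh3a (-0.08, edgeR adjusted p = 0.604) and Idh3g (-0.33, edgeR adjusted p = 0.0697) were not, and Cs (0.15) and Mdh2 (0.11) turned from negative to positive values without passing. Of all genes called, 50.7% were higher with age in wild-type and 52.1% in V338Y mice with TMM, and 66.2% and 81.0% with totals.

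**Figure D1:**
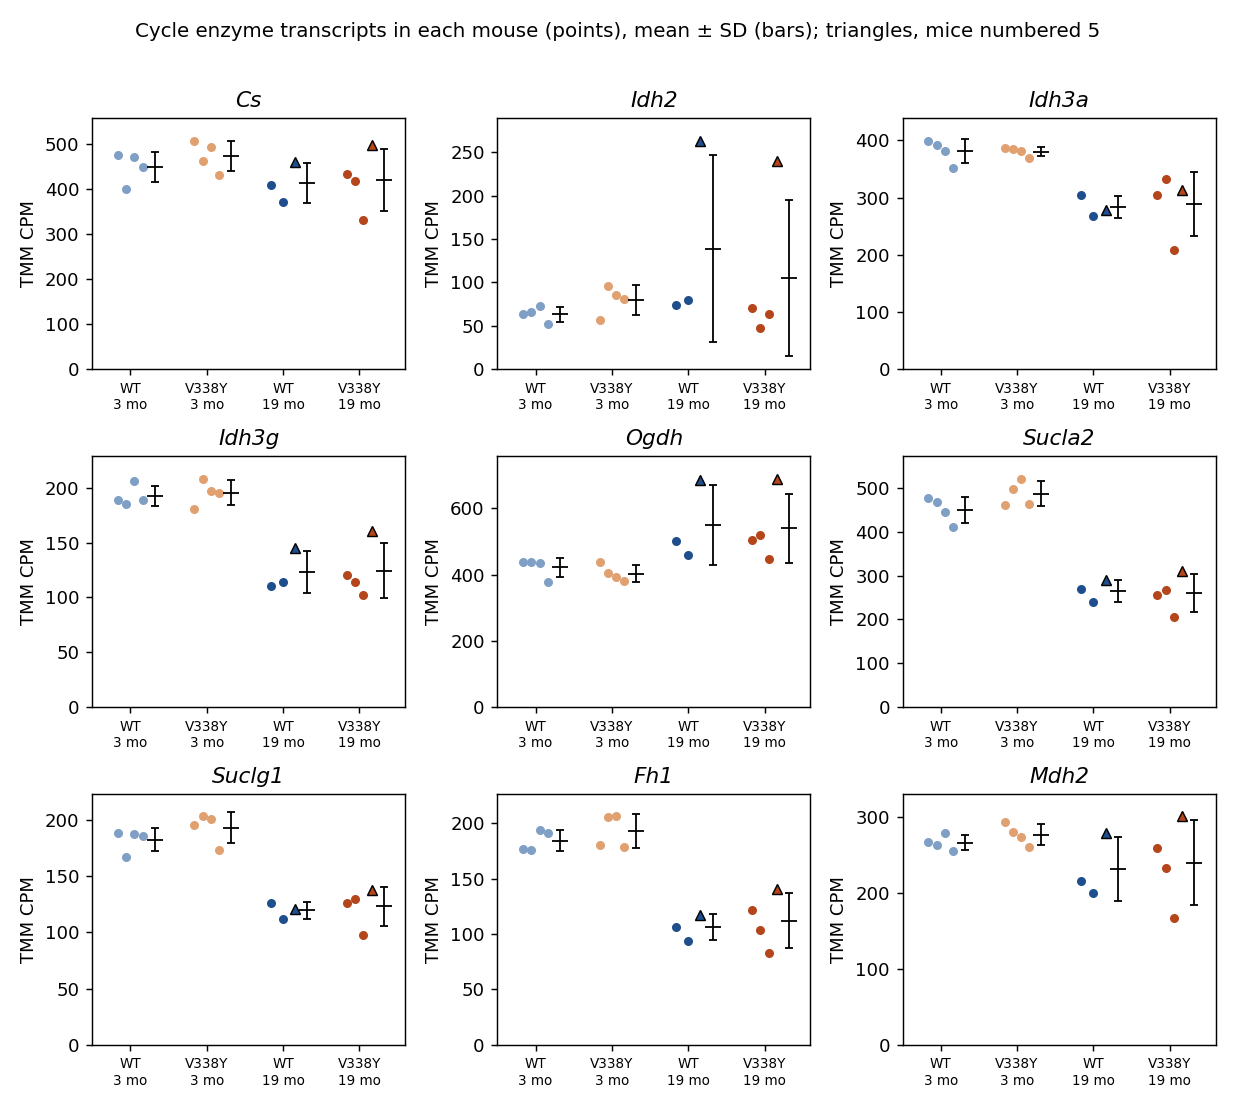
Level of each of the 9 enzyme transcripts (TMM CPM, axis from 0) in every mouse of the 4 groups, with the mean and SD of the group beside the points; triangles are the 19 mo mice numbered 5. Idh3a, Idh3g, Sucla2, Suclg1 and Fh1 lie lower in every 19 mo mouse than in every 3 mo mouse, Ogdh lies higher, and Idh2 is at 263 and 240 CPM in the mice numbered 5 and at no more than 96.3 CPM in the others.

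Citrate synthase (Cs, chr10:128337734-128362479 in GRCm38, the build of all positions given here) makes citrate from acetyl-CoA and oxaloacetate and opens the cycle. Its level was 475, 401, 472 and 448 CPM in wild-type mice 1 to 4 at 3 mo and 408, 371 and 460 CPM in wild-type mice 2, 4 and 5 at 19 mo. V338Y mice 1 to 4 had 507, 463, 493 and 431 CPM at 3 mo, and V338Y mice 2 to 5 had 433, 418, 332 and 498 CPM at 19 mo. The ages overlapped in both genotypes. The log2 fold change was -0.10 for wild-type (95% interval -0.34 to 0.14, edgeR adjusted p = 0.495) and -0.15 for V338Y mice (-0.43 to 0.14, edgeR adjusted p = 0.368).

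Isocitrate is oxidized in the matrix by an NAD-dependent and an NADP-dependent enzyme. Idh3 is the NAD-dependent enzyme of the cycle proper, built from a catalytic alpha subunit (Idh3a) with beta (Idh3b) and gamma (Idh3g) subunits. Idh3a (chr9:54586334-54604661) was at 399, 392, 382 and 351 CPM in 3 mo wild-type mice and at 304, 268 and 279 CPM in 19 mo wild-type mice. In V338Y mice it was at 386, 384, 381 and 370 CPM at 3 mo and at 304, 333, 208 and 313 CPM at 19 mo. Every 19 mo mouse was thus below every 3 mo mouse. Idh3a fell by 0.41 ± 0.09 (SE) on the log2 scale in wild-type mice (edgeR adjusted p = 0.00826) and by 0.37 ± 0.14 in V338Y mice (edgeR adjusted p = 0.0494). The call in V338Y mice was near the threshold. It was lost without any one of V338Y mice 1 to 4 at 3 mo or V338Y mouse 2 or 4 at 19 mo. The edgeR adjusted p then lay between 0.0630 and 0.102. This call was also lost without the filter on low counts (edgeR adjusted p = 0.0615) and without the 10 most counted genes (edgeR adjusted p = 0.0512).

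Idh3g (chrX:73778963-73786897) was lower still relative to 3 mo. Wild-type mice had 189, 186, 206 and 189 CPM at 3 mo and 111, 114 and 145 CPM at 19 mo. V338Y mice had 181, 208, 198 and 196 CPM at 3 mo and 120, 115, 102 and 161 CPM at 19 mo. The ages did not overlap, and the log2 fold change was -0.62 for wild-type (edgeR adjusted p = 0.00327) and -0.63 for V338Y mice (edgeR adjusted p = 0.00471). Its partner Idh3b changed by -0.58 and -0.64 on the log2 scale and was called lower in both genotypes.

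Idh2 (chr7:80094846-80115392) is the NADP-dependent isocitrate dehydrogenase of the matrix, a supplier of NADPH. Wild-type mice had 63.4, 65.9, 72.8 and 51.7 CPM at 3 mo and 74.3, 80.0 and 263 CPM at 19 mo. V338Y mice had 56.5, 96.3, 85.4 and 80.5 CPM at 3 mo and 70.9, 47.3, 63.2 and 240 CPM at 19 mo. In each genotype the single high value was that of the 19 mo mouse numbered 5. The log2 fold change was 1.15 ± 0.39 (SE) in wild-type mice (edgeR adjusted p = 0.0462) and 0.42 ± 0.45 in V338Y mice (edgeR adjusted p = 0.461). Without wild-type mouse 5 the first value was 0.29 (edgeR adjusted p = 0.129), and without V338Y mouse 5 the second turned to -0.36 (edgeR adjusted p = 0.161). The wild-type call was also lost when any 1 of the 3 mo wild-type mice was left out (edgeR adjusted p between 0.0766 and 0.106) and with DESeq2 (adjusted p = 0.0721).

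The 2-oxoglutarate dehydrogenase complex turns 2-oxoglutarate into succinyl-CoA, and Ogdh (chr11:6291633-6356642) is its first component, the one that decarboxylates the substrate. Ogdh was at 437, 439, 434 and 378 CPM in 3 mo wild-type mice and at 501, 460 and 686 CPM in 19 mo wild-type mice. V338Y mice had 436, 404, 391 and 379 CPM at 3 mo and 503, 521, 447 and 690 CPM at 19 mo. Ogdh was the only member that was higher in every 19 mo mouse than in every 3 mo mouse of both genotypes. Its log2 fold change was 0.45 ± 0.13 (SE) in V338Y mice (edgeR adjusted p = 0.0212) and 0.40 ± 0.14 in wild-type mice, which missed the threshold (edgeR adjusted p = 0.0529).

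The Ogdh result rested in part on few mice. Without wild-type mouse 5 the wild-type value was 0.20 on the log2 scale (edgeR adjusted p = 0.153), whereas it passed without wild-type mouse 2 (edgeR adjusted p = 0.0480) or mouse 4 (edgeR adjusted p = 0.0428) at 19 mo, and with DESeq2 (adjusted p = 0.0303). The V338Y call was lost without V338Y mouse 2, 3 or 4 at 3 mo (edgeR adjusted p between 0.0531 and 0.0614) and held without V338Y mouse 5. The other components of the complex had negative log2 fold changes in both genotypes. Dlst, the succinyl-transferase, changed by -0.40 in wild-type mice (edgeR adjusted p = 0.0327) and by -0.14 in V338Y mice (edgeR adjusted p = 0.454), and Dld, the dihydrolipoyl dehydrogenase, by -0.65 and -0.73, called lower in both.

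Succinyl-CoA ligase makes succinate and is the only step of the cycle that yields a nucleoside triphosphate. Suclg1 is its alpha subunit, which pairs with either of 2 beta subunits, Sucla2 for ADP and Suclg2 for GDP. Sucla2 (chr14:73525319-73596142) was at 479, 468, 447 and 410 CPM in 3 mo wild-type mice and at 269, 239 and 289 CPM in 19 mo wild-type mice. V338Y mice had 463, 499, 522 and 465 CPM at 3 mo and 256, 267, 206 and 311 CPM at 19 mo. The highest value of any 19 mo mouse, 311 CPM, was thus below the lowest of any 3 mo mouse, 410 CPM. Sucla2 fell by 0.74 ± 0.10 (SE) on the log2 scale in wild-type mice, to 0.598 of the 3 mo level (edgeR adjusted p = 0.00101), and by 0.88 ± 0.13 in V338Y mice, to 0.543 (edgeR adjusted p = 0.000611).

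Suclg1 (chr6:73248382-73276911) was at 189, 167, 188 and 186 CPM in 3 mo wild-type mice and at 126, 112 and 121 CPM at 19 mo. V338Y mice had 195, 203, 201 and 174 CPM at 3 mo and 126, 130, 97.9 and 138 CPM at 19 mo, again without overlap. It fell by 0.59 on the log2 scale in wild-type (edgeR adjusted p = 0.00123) and by 0.63 in V338Y mice (edgeR adjusted p = 0.00191). The GDP-forming Suclg2 was at 42.4 ± 3.88 CPM (SD, n = 4) at 3 mo and 41.9 ± 5.35 CPM (n = 3) at 19 mo in wild-type mice and did not pass the test in either genotype.

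Succinate dehydrogenase, whose genes are not among the 9 members, had all 4 subunits called lower in wild-type mice, with log2 fold changes from -0.37 for Sdha to -0.77 for Sdhc. In V338Y mice 3 of the 4 were called lower, and Sdhb had -0.49 (edgeR adjusted p = 0.0730). The following enzyme, fumarase (Fh1, chr1:175600374-175625635), hydrates fumarate to malate. Fh1 was at 177, 176, 194 and 191 CPM in 3 mo wild-type mice and at 107, 94.2 and 117 CPM at 19 mo. V338Y mice had 181, 206, 206 and 179 CPM at 3 mo and 122, 103, 83.3 and 140 CPM at 19 mo. The ages did not overlap. Fh1 fell by 0.78 ± 0.10 (SE) in wild-type mice, to 0.584 of the 3 mo level (edgeR adjusted p = 0.000628), and by 0.76 ± 0.15 in V338Y mice, to 0.592 (edgeR adjusted p = 0.00303).

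Mitochondrial malate dehydrogenase (Mdh2, chr5:135778480-135790398) closes the cycle by making oxaloacetate from malate. It was at 267, 262, 278 and 255 CPM in 3 mo wild-type mice and at 216, 199 and 278 CPM at 19 mo. V338Y mice had 293, 279, 274 and 260 CPM at 3 mo and 258, 232, 167 and 300 CPM at 19 mo. At 19 mo mouse 5 lay at the upper end of the 3 mo range in wild-type mice (278 CPM each) and above that range in V338Y mice. The other 19 mo mice of both genotypes lay below it, V338Y mouse 2 only just. The log2 fold change was -0.18 in both genotypes (edgeR adjusted p = 0.269 in wild-type and 0.353 in V338Y mice). Without wild-type mouse 5 it was -0.35 in wild-type mice and passed the test (edgeR adjusted p = 0.0161).

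**Figure D2:**
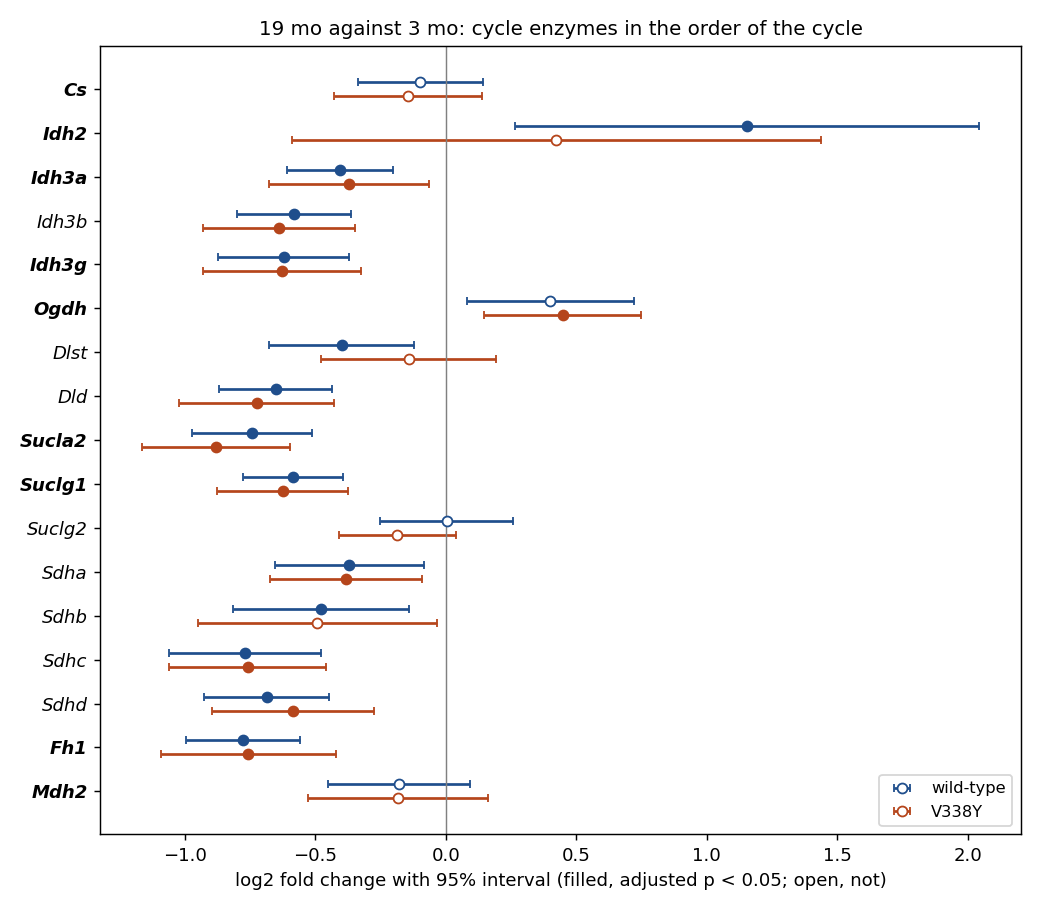
Log2 fold change from 3 to 19 mo with its 95% interval for the 9 members (bold) and 8 other genes of the mitochondrial cycle, in the order of the cycle, in wild-type (blue) and V338Y mice (red); filled points passed an edgeR adjusted p of 0.05. Most genes lie left of 0, with Sucla2 at -0.74 and -0.88, while Ogdh at 0.40 and 0.45 and Idh2 at 1.15 and 0.42 lie right of it.

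Taken per kilobase of exon, so that genes can be compared, Sucla2 had the highest level of the 9 at 3 mo, with 113 ± 7.53 CPM per kb in wild-type (SD, n = 4) and 122 ± 7.12 in V338Y mice, and its range lay above that of the next gene, Cs. Cs, Ogdh, Idh3a, Mdh2 and Idh3g followed between 71.2 and 81.9 CPM per kb, and neighbours in this order overlapped. Fh1, Suclg1 and Idh2 came last, each apart from its neighbours, with Idh2 lowest at 24.5 ± 3.39 and 30.8 ± 6.51 CPM per kb. At 19 mo Ogdh had the highest level per kb, 101 ± 22.1 in wild-type (n = 3) and 99.0 ± 19.2 in V338Y mice (n = 4), where its range overlapped that of Cs, and Sucla2 had 66.6 ± 6.35 and 65.2 ± 10.8, within the ranges of its neighbours. Suclg1 was then the lowest, at 25.9 ± 1.59 and 26.7 ± 3.79 CPM per kb.

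Ratios of 2 transcripts within a mouse do not depend on how libraries are scaled. For 8 such ratios the ages were exchanged within each genotype in a two-sided exact permutation test, which can go no lower than p = 0.000408, and p-values were adjusted over all 16 ratio tests. With age, 6 of the 8 ratios passed, and 3 when wild-type mouse 3 or 4 or V338Y mouse 2 or 3 at 3 mo was left out. The ratio of Sucla2 to Suclg2 counts was 10.7 ± 1.18 (SD, n = 4) in 3 mo wild-type, 10.4 ± 0.679 (n = 4) in 3 mo V338Y, 6.36 ± 0.471 (n = 3) in 19 mo wild-type and 6.39 ± 0.515 (n = 4) in 19 mo V338Y mice. All 7 mice at 19 mo were between 5.90 and 7.08 and all 8 at 3 mo between 9.61 and 12.4, a difference of -0.72 on the log2 scale (exact permutation adjusted p = 0.00327).

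The ratio of Ogdh to Dlst moved the other way. At 3 mo it was 2.52 ± 0.250 (SD, n = 4) for wild-type and 2.46 ± 0.137 (n = 4) for V338Y mice, against 4.37 ± 0.206 (n = 3) and 3.74 ± 0.403 (n = 4) at 19 mo. The lowest 19 mo value was 3.37 and the highest 3 mo value 2.81, and the difference was 0.70 on the log2 scale (exact permutation adjusted p = 0.00327). Components of 1 enzyme complex were therefore counted in different proportions at the 2 ages.

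Smaller shifts were found within succinyl-CoA ligase and isocitrate dehydrogenase. Sucla2 fell more than its partner Suclg1, by 0.21 on the log2 scale (exact permutation adjusted p = 0.0218). Idh3a fell less than Idh3b, with a difference of 0.22 (exact permutation adjusted p = 0.0300), and less than Idh3g by 0.24, which missed the threshold (exact permutation adjusted p = 0.0681). The ratio of the matrix Mdh2 to the cytosolic Mdh1 was higher at 19 mo by 0.31 (exact permutation adjusted p = 0.0229). Idh2 relative to Idh3a was higher by 0.92 (exact permutation adjusted p = 0.0435), but without both mice numbered 5 by 0.39 (exact permutation adjusted p = 0.175), whereas Idh3a to Idh3g then passed at 0.35 (exact permutation adjusted p = 0.0152). With each of the 15 mice left out in turn, the calls of Sucla2 to Suclg2, Ogdh to Dlst and Sucla2 to Suclg1 held every time, whereas that of Mdh2 to Mdh1 was lost 4 times, that of Idh3a to Idh3b 9 times and that of Idh2 to Idh3a 13 times.

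**Figure D3:**
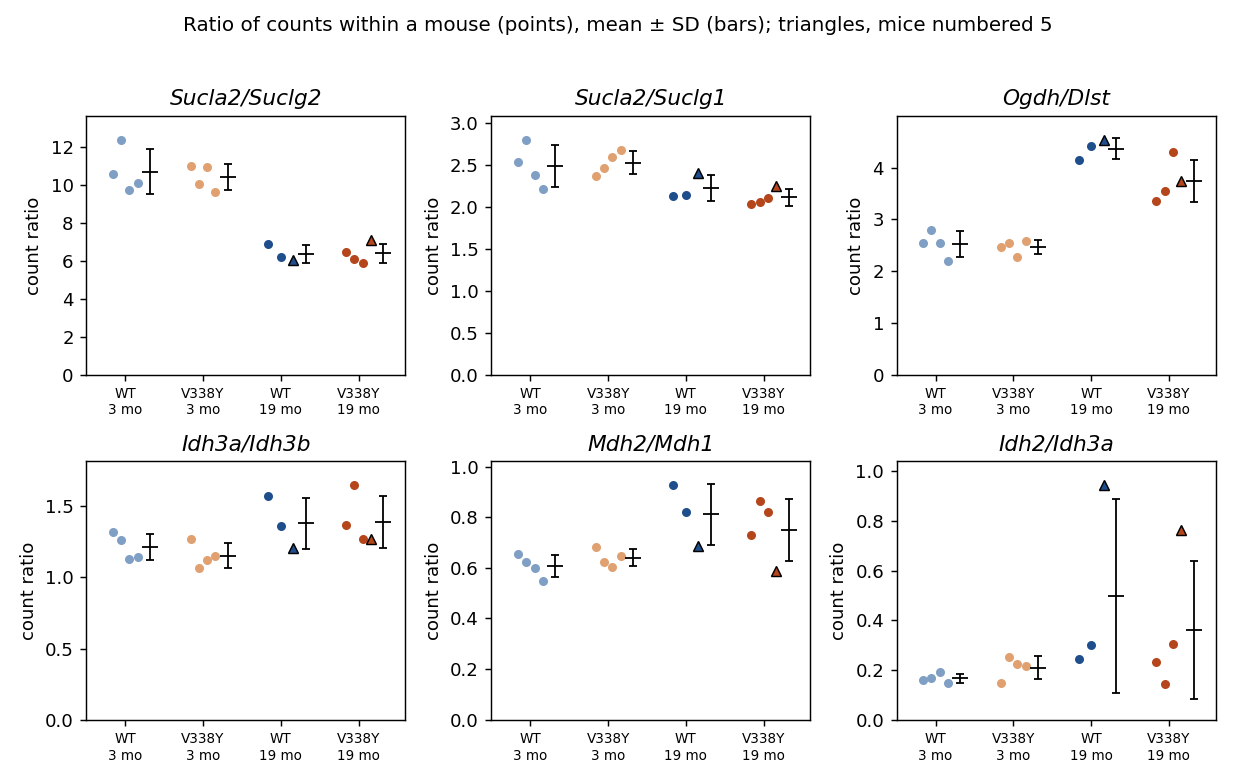
Count ratios within each mouse for 6 pairs of genes (axis from 0), with the mean and SD of each group; triangles are the 19 mo mice numbered 5. Sucla2/Suclg2 falls from 9.61 to 12.4 at 3 mo to between 5.90 and 7.08 at 19 mo and Ogdh/Dlst rises without overlap, while the high Idh2/Idh3a ratios at 19 mo are those of the mice numbered 5.

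The 19 mo mice differed among themselves more than the 3 mo mice did. Of the 9 members, 8 had their highest level of 19 mo V338Y mice in mouse 5 and 8 their lowest in mouse 4. Among 19 mo wild-type mice 7 were highest in mouse 5 and 7 lowest in mouse 4. Idh2 stood out in the mice numbered 5, at 3.41 times the mean of the other 19 mo wild-type mice and 3.96 times that of the other 19 mo V338Y mice. For Ogdh these ratios were 1.43 and 1.41, and for Idh3a 0.975 and 1.11.

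Genes of oxidative muscle fibers were also high in the mice numbered 5. The fast oxidative myosin Myh2 was at 4172 CPM in the wild-type and 4896 CPM in the V338Y mouse and at 243 to 883 CPM in the other 13 mice. The 6 oxidative fiber genes examined were Myh7, Myh2, Myl2, Tnnc1, Tnni1 and Atp2a2. They summed to 4828 and 7219 CPM in the mice numbered 5 and to 307 to 1026 CPM in the others. The sum in wild-type mouse 5 was mostly Myh2. Its Myh7 was at 314 CPM, beside 9.94 to 177 CPM in the other 19 mo wild-type mice. In V338Y mouse 5 Myh7 was at 1214 CPM, beside 0.602 to 28.2 CPM in the other 19 mo V338Y mice. By group the sum ran from 436 to 639 CPM in 3 mo wild-type, 587 to 1026 in 3 mo V338Y, 307 to 4828 in 19 mo wild-type and 519 to 7219 in 19 mo V338Y mice, and none of the 6 was at 0 in all mice of a group. Myh4, the myosin of the fastest fibers, was at 39504 and 22480 CPM in the mice numbered 5 and at 39737 to 79524 CPM in the others. V338Y mouse 5 further held 598 CPM of 6 neutrophil genes, against at most 25.2 CPM in any other mouse. The part of these fibers and cells in the levels of Idh2 and Ogdh was not tested. The 5 members called lower were also called lower without both mice numbered 5, with log2 fold changes from -0.41 to -0.87 in wild-type and from -0.40 to -0.96 in V338Y mice.

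**Figure D4:**
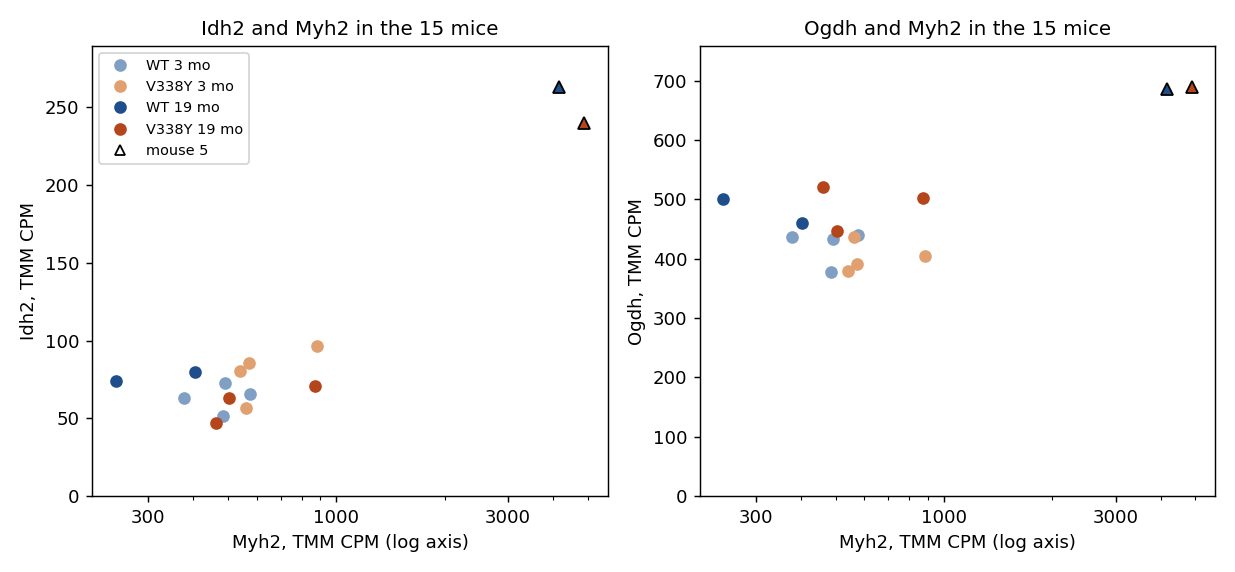
Level of Idh2 (left) and Ogdh (right) against Myh2 in the 15 mice, all in TMM CPM, with a log axis for Myh2; colours are the 4 groups and triangles the 19 mo mice numbered 5. These mice have Idh2 at 263 and 240 CPM beside Myh2 at 4172 and 4896 CPM, whereas the other 13 mice have at most 96.3 CPM of Idh2 and 883 CPM of Myh2.

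Between genotypes none of the 9 members was called at either age, which does not show equal levels. At 3 mo edgeR called 0 of 9, against 0.075% of 13333 genes. At an unadjusted p under 0.05 there were 0 of 9 (9.7% of all genes), and DESeq2 called 0 of 9 (0.496%). The member furthest from 0 was Idh2, with a log2 fold change of 0.32 (95% interval -0.02 to 0.66, edgeR adjusted p = 0.540). For the other 8 members the log2 fold changes lay between -0.07 and 0.11, and their 95% intervals between -0.23 and 0.26. A difference beyond these bounds is outside the intervals of those 8 genes.

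At 19 mo edgeR again called 0 of 9 members, against 0.0434% of 13833 genes. At an unadjusted p under 0.05 there were 0 of 9 (8.93% of all genes), and DESeq2 called 0 of 9 (0.45%). The 8 members other than Idh2 had log2 fold changes between -0.02 and 0.09, with 95% intervals between -0.47 and 0.53. Idh2 had -0.39 (95% interval -1.86 to 1.07, edgeR adjusted p = 0.880). With mice paired by number, 110 genes in place of 6 were called (0.795%), and still 0 of 9 members. The intervals at 19 mo are wider than at 3 mo for every member, so that smaller differences between genotypes were not detectable there.

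Whether age acted differently in the 2 genotypes was tested as the interaction. It called 0 of 9 members and 0 of all 14128 genes (0%) with edgeR. At an unadjusted p under 0.05 there were 0 members and 1361 genes (9.63%), and DESeq2 called 26 genes (0.185%), none of them a member. The interaction of Idh2 was -0.74 on the log2 scale (95% interval -2.19 to 0.72, edgeR adjusted p = 0.745), and the other 8 lay between -0.15 and 0.04. Of the 8 within-mouse ratios 0 differed between genotypes after adjustment (exact permutation, genotypes exchanged within age), and the smallest p was that of Ogdh to Dlst, lower in V338Y mice by 0.13 on the log2 scale (exact permutation p = 0.0808, adjusted p = 0.162).

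**Figure D5:**
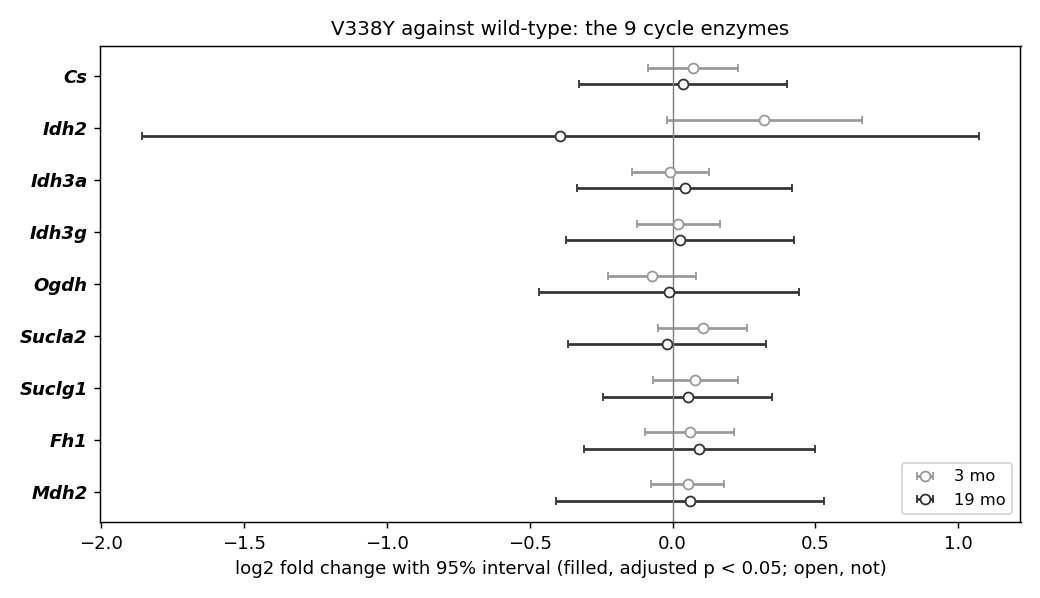
Log2 fold change of V338Y against wild-type mice with its 95% interval for the 9 members at 3 mo (grey) and 19 mo (black); open points did not pass an edgeR adjusted p of 0.05. All 18 points are open, and the widest interval is that of Idh2 at 19 mo, from -1.86 to 1.07.

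Genes around the cycle were taken from lists of names. Over all genes tested, 17.8% were called lower and 18.3% higher with age in wild-type mice, and 22.5% and 24.4% in V338Y mice. Of 8 other genes of the mitochondrial cycle, 7 were called lower and 0 higher with age in wild-type and 5 lower and 0 higher in V338Y mice, and Suclg2 passed in neither. Of 13 genes of pyruvate entry, 7 were called lower and 2 higher in wild-type and 6 lower and 1 higher in V338Y mice. The lower ones included subunits of pyruvate dehydrogenase (Pdha1, log2 fold change -0.63 and -0.59) and the mitochondrial pyruvate carrier (Mpc2, -0.92 and -0.89). Pdk2, a kinase that inhibits pyruvate dehydrogenase, was called higher in both genotypes, by 1.13 and 0.86 on the log2 scale. Pdk4, another such kinase, ran from 54.5 to 2612 CPM among 19 mo mice and did not pass.

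Factors that assemble or modify the enzymes moved like the members that fell. Of 11 such genes and paralogs, 10 were tested, 7 were called lower and 2 higher in each genotype. The shares of all genes were 17.8% and 18.3% in wild-type and 22.5% and 24.4% in V338Y mice. The lower ones included Lias, the lipoic acid synthase whose product Dlst needs (-0.47 and -0.68 on the log2 scale), and Sdhaf1, an assembly factor of succinate dehydrogenase (-0.93 and -0.86). Those called higher were low in level, Ogdhl at no more than 5.35 CPM and Dhtkd1 at no more than 6.42 CPM in any mouse. Csl, a paralog of Cs, had at most 0.0838 CPM.

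Genes of routes that feed or drain the cycle were examined next. Of 14 genes of anaplerosis and carriers, 2 were called lower and 0 higher in wild-type mice (17.8% and 18.3% of all genes), and 4 higher and 0 lower in V338Y mice (24.4% and 22.5%), so that the 2 and the 4 are near the shares of all genes. The 2 lower genes were Glud1 (log2 fold change -0.23) and Slc25a11 (-0.45). The 4 higher genes were pyruvate carboxylase (Pcx, log2 fold change 0.86), Pck2 (0.70) and the carriers of citrate (Slc25a1, 1.74) and dicarboxylates (Slc25a10, 1.72). Of 5 cytosolic counterparts, Mdh1 (-0.56) and Aco1 (-0.40) were called lower in wild-type mice (17.8% of all genes). ATP citrate lyase (Acly, 2.47) was called higher in V338Y mice (24.4%). Acly ranged from 45.9 to 327 CPM among 19 mo V338Y mice. None of these 19 genes passed the interaction test or was called between genotypes at 19 mo. At an unadjusted edgeR p under 0.05, which 8.93% of all genes reached, several were higher in V338Y mice at 19 mo. These were Pcx (log2 fold change 1.03), Slc25a1 (1.97), Slc25a10 (1.79), Me2 (0.74), Acly (2.04), Aco1 (0.38) and Idh1 (0.51). Their edgeR adjusted p ran from 0.165 to 0.541, so the missing calls do not show equal levels.

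Of 6 adipocyte genes, 2 were called higher with age in V338Y mice, near the share of all genes (24.4%). Plin1, which coats fat droplets, was at 6.81 to 17.9 CPM at 3 mo and 18.6 to 82.1 CPM at 19 mo in V338Y mice, and Pparg, the nuclear receptor of fat cell formation, at 3.20 to 5.16 and 6.56 to 15.2 CPM, both without overlap. In wild-type mice Plin1 was at 10.6 to 50.9 CPM at 3 mo and 13.5 to 20.6 CPM at 19 mo. The 6 genes summed to 194 to 689 CPM in 3 mo and 124 to 282 CPM in 19 mo wild-type mice and to 109 to 496 and 158 to 782 CPM in V338Y mice, and none was at 0 in all mice of a group. Of the 6, 1 was called lower with age in wild-type mice, near the share of all genes (17.8%). Within the 3 mo groups Slc25a1 was highest in wild-type mouse 1 (17.7 CPM) and V338Y mouse 1 (8.5 CPM), which also had the highest adipocyte sums of their groups. At 19 mo this was not so. Slc25a1 was then highest in wild-type mouse 2 (4.10 CPM) and V338Y mouse 2 (28.8 CPM). The adipocyte sums were highest in wild-type mouse 5 (282 CPM) and V338Y mouse 4 (782 CPM). The part of fat cells in the levels of Slc25a1, Slc25a10, Pcx and Acly was not tested.

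Among 12812 other genes with a mean of at least 1 CPM, the 4 whose profile over the 15 mice lay closest to the mean profile of the 9 members were Pdk1, Helb, Sdha and Sacm1l. Their root mean square distances were 0.0834 to 0.0997 on the log2 scale. The members' own distances ran from 0.0855 for Mdh2 to 0.361 for Ogdh and 0.635 for Idh2, so the mean profile was a poor description of the latter 2. Pdk1, a kinase of pyruvate dehydrogenase, was at 71.9 ± 4.62 CPM (SD, n = 4) in 3 mo and 63.2 ± 6.15 CPM (n = 3) in 19 mo wild-type mice, and at 73.7 ± 3.45 and 56.8 ± 10.8 CPM (n = 4 each) in V338Y mice.

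Regulators of nuclear or mitochondrial genes for mitochondrial proteins changed with age in both directions. Esrra, a nuclear receptor, was called lower in both genotypes (log2 fold change -0.86 and -0.75), as was Tfam, which packages mitochondrial DNA (-0.68 and -0.95). The coactivator Ppargc1b was called higher in both (1.30 and 1.36), Ppargc1a passed in V338Y mice (0.58) and not in wild-type mice (0.44), a difference that the interaction test did not call, and Nrf1 passed in neither. Gabpa, a subunit of the factor GABP, was called lower in V338Y mice only just (-0.31, edgeR adjusted p = 0.0497).

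Start regions of the members are shown because genes that fell and a gene that rose share letters there. RefSeq gives windows of 300 bases (250 before and 50 after a transcript start) for 8 of the 9 members, in build GRCm38.p6, and the following are on the strand of the gene, 5′ to 3′. Idh3g lies at chrX:73786848-73787147 on the minus strand, Sucla2 at chr14:73552536-73552835 on the plus strand, Fh1 at chr1:175625586-175625885 on the minus strand and 1 of 6 windows of Ogdh at chr11:6292308-6292607 on the plus strand. Capitals mark matches, on either strand, to letters bound by NRF1 (GCGCNTGCG), YY1 (ATGGCGG), GABP (CCGGAAG), NF-Y (CCAAT) or estrogen-related receptors (AAGGTCA).
Idh3g: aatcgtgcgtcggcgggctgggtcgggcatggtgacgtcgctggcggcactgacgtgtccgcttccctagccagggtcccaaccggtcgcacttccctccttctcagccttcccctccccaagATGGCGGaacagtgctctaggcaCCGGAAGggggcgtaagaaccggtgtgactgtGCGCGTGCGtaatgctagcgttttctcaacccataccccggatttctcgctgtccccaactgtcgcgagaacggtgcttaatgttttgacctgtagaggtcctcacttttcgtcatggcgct
Sucla2: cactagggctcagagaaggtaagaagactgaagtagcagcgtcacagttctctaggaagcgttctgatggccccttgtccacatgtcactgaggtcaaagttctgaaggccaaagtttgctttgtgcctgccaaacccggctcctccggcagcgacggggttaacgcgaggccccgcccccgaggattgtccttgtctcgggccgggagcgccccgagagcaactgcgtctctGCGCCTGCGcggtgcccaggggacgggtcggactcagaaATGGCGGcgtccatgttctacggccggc
Fh1: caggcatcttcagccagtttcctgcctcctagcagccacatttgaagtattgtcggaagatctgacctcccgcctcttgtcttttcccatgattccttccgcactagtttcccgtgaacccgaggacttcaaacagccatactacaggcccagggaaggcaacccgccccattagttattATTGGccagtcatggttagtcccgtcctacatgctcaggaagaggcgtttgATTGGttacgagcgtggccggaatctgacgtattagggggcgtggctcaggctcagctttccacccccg
Ogdh: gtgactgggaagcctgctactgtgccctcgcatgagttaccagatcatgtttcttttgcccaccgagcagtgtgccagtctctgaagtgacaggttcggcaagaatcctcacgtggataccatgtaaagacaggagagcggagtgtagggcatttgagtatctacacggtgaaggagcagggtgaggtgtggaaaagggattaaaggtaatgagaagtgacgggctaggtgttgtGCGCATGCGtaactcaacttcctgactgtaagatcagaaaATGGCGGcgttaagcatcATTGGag

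The NRF1 letters were in windows of Idh3g, Sucla2 and Ogdh, 3 of 8 members, and in 7.12% of all 27025 genes with a window. The YY1 letters were in the same 3 members and in 4.69% of genes. The GABP letters were in Idh3g (9.93% of genes), the letters for estrogen-related receptors in another window of Ogdh (5.38%) and the NF-Y letters in Cs, Fh1, Idh2 and Ogdh (41.1%). Suclg1 and Mdh2 had none of the 5 motifs in their windows. Idh3g and Sucla2, which fell with age, and Ogdh, which was higher, thus held the same YY1 letters and the same NRF1 pattern, with a different base at its free position in each. The motifs were chosen with these start regions in view, so the shares of all genes cannot test whether members hold more matches. Ogdh had several windows and so more chances of a match. A match is a run of letters, and binding was not measured here.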

How the data were processed

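RNA of quadriceps muscle was sequenced from single mice. Reads were quantified by the authors with RSEM, and what they deposited is an expected count for each gene of each mouse, as whole numbers that are not scaled for depth or length. The submitters' processing notes name STAR 2.4.2a, CASAVA 1.8, bcl2fastq 1.8.4 and, for mouse, GRCm38, whereas the methods name an older build. Libraries were stranded, and the strand setting of the counting is not given in the sources used here. Members share no exon bases with another annotated gene.

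Counts were tested with edgeR 4.0.16 in R 4.3.3 (quasi-likelihood, TMM), after keeping genes that reached 10 counts in 50% or more of the animals of 1 compared group, and fitted to the groups compared or, for the interaction, to all 15 mice. Benjamini-Hochberg adjusted values under 0.05 were called. Ratios were log2 of counts plus 0.5, compared by exact permutation. No 2 of the 15 files were identical, and replicates differed by more than counting noise. Lengths and positions came from the GENCODE annotation of GRCm38. The code was tested on simulated data.

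Genes named are the 9 members, those of the lists described and the 4 nearest in profile. Of the 8 ratios, 1 is not reported here. Members and lists were chosen with earlier results of these data known, and the motifs with the start regions in view. Alternatives were RLE size factors, DESeq2 1.42.0, no filter, removal of the 10 most counted genes, a fit of all mice, a block by mouse number, each mouse left out, no pseudocount, and an unadjusted p under 0.005. Leaving out both 19 mo mice numbered 5, and library totals without TMM factors, were added after seeing the data. The labels give no batch. Deviations of same-numbered wild-type and V338Y mice at 19 mo correlated at 0.136 to 0.338 in all 3 pairs. Pairs with different numbers correlated at -0.312 to 0.360, so the correlations do not settle whether numbers pair these mice, and the labels do not say. Genotype values at 19 mo are from the unpaired fit, and the fit paired by number is given beside it. In the other comparisons the correlations of same-numbered mice were -0.203 to 0.0905, and the numbers were not taken to pair mice.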

Additional observations from a re-analysis of the deposited data

Results flagged for a closer look

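In groups of 4 mice, 51 sets of values (CPM of the 9 members and the 8 ratios in 3 groups) were screened for a mouse far from the rest by Dixon's ratio, which chance passes in about 5% of groups, and 4 passed its critical value. Idh2 in 19 mo V338Y mouse 5 was at 240 CPM, with a Dixon ratio of 0.877, beside 47.3 to 70.9 CPM in the other 3 mice. The other 3 sets were small departures in 3 mo wild-type mice. Idh3g was at 206 CPM in mouse 3 (the others 186 to 189), Ogdh at 378 CPM in mouse 4 (the others 434 to 439) and Suclg1 at 167 CPM in mouse 2 (the others 186 to 189). Idh2 at 263 CPM in 19 mo wild-type mouse 5 belongs to a group of 3 and was not screened.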

How the results depend on the processing

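Member counts stayed within 1.5 times of those above under all alternatives run, at 4 to 7 with age in wild-type mice, 4 to 6 with age in V338Y mice and 0 for genotype at each age and for the interaction. Sucla2, Suclg1 and Fh1 were called lower with age in both genotypes in every alternative. The cause of the changes that follow was not tested.

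With library totals, Cs (0.15) and Mdh2 (0.11) turned positive for age in V338Y mice, and between genotypes Ogdh (0.13) and Sucla2 (0.12) at 19 mo and Idh3g (-0.024) at 3 mo changed sign without passing. Without both mice numbered 5, Idh2 was -0.36 for age in V338Y mice and Ogdh 0.054 between genotypes at 19 mo, and without a filter Idh3g was -0.0024 there.

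With a replicate block (mouse number as a term), Idh2 turned to -0.53 for age in V338Y mice (edgeR adjusted p = 0.0214), and at 19 mo Idh3a (-0.042) and Ogdh (0.014) changed sign between genotypes without passing. The block ended the age calls of Idh2 (edgeR adjusted p = 0.119) and Idh3a (0.105) in wild-type and of Idh3a (0.0686) and Ogdh (0.0859) in V338Y mice, and changed no other call of a member. For age these mice share only a number: 2229 genes in place of 4940 were called in wild-type and 5505 in place of 6505 in V338Y mice. At 3 mo the block called 14 genes in place of 10, and for the interaction 28 in place of 0.

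Over all genes, DESeq2 called 66 at 3 mo and 62 at 19 mo between genotypes and 26 for the interaction, and no filter gave 33, 14 and 5.

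With each mouse left out, Idh2 ran from -0.36 to 0.66 for age in V338Y mice and from -1.50 to 0.12 in the interaction. Between genotypes at 19 mo the ranges were -0.050 to 0.13 for Cs, -1.18 to 0.47 for Idh2, -0.019 to 0.17 for Idh3a, -0.11 to 0.17 for Idh3g, -0.15 to 0.19 for Ogdh, -0.11 to 0.070 for Sucla2, -0.00081 to 0.14 for Suclg1, -0.027 to 0.21 for Fh1 and -0.059 to 0.22 for Mdh2. At 3 mo they were -0.044 to 0.017 for Idh3a and -0.013 to 0.063 for Idh3g. For the ratios, 3 to 6 of the 8 passed with age, 3 of them without wild-type mouse 3 or 4 or V338Y mouse 2 or 3 at 3 mo.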
